A study of Mus musculus with 18 samples.

Results

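Inflammatory cytokines and activation genes were followed in bone marrow-derived macrophages (BMDMs) over 3 days of RANKL, the cytokine that turns macrophages into osteoclasts. The 10 genes were the interleukin-1 ligands *Il1a* and *Il1b*, their antagonist *Il1rn*, the cytokines *Il18*, *Il6*, *Il10* and *Tnf*, the arginine enzymes *Nos2* and *Arg1*, and the acute phase gene *Saa3*. They were taken by gene name, and each matched 1 of the 34745 genes in the table. Of the 10, 9 had enough counts to be among the 14241 genes tested. *Il6* had too few and is given by its counts.

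The cells came from C57BL/6 mice with a global *Zmat1* knockout (KO) and from wild-type (WT) littermates. Marrow cells of both had first been cultured in M-CSF, a macrophage growth factor, and RANKL was then added for 0, 1 or 3 days. This gave 6 groups of 3 libraries, which are named here by label, day and number (for example KO day 1 library 1). WT day 1 holds 1 pair of libraries both numbered 1, told apart by a single or a double hyphen in the title, and no number 3. A double hyphen was used in 5 titles (WT day 0 library 1, a WT day 1 library 1, KO day 0 library 2 and KO day 1 libraries 1 and 2) and a single hyphen in 13. What the title style stands for is not given in the sources used here. The labels do not tie libraries to mice, so p-values measure the spread between these libraries, which may be technical.

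Total counts per library ran from 13789775 to 17559958. Levels are given as CPM, the read count relative to the library total after TMM normalisation, unless FPKM is named, and changes are log2 fold changes of the later over the earlier day. *Zmat1* was not lower in the libraries labelled KO on any day (log2 fold changes 0.24 to 0.63, edgeR adjusted p 0.615 to 0.93), so the labels are used here only as labels. Markers of the labelled cells were present. The summed level of 8 macrophage markers was 28900 to 59500 CPM at day 0 and 6170 to 17100 CPM at day 3. The sum of 10 osteoclast markers rose from 224 to 988 CPM at day 0 to 8290 to 23400 CPM at day 3. Markers of other cells were present too and moved with time. The 12 neutrophil markers summed to 916 to 3450 CPM (WT) and 4140 to 12900 CPM (KO) at day 0, against 62.9 to 96.5 CPM and 131 to 1330 CPM at day 3. The 12 stromal and osteoblast markers summed to 98 to 4870 CPM at day 0 and 11300 to 30100 CPM at day 3. In bulk RNA, fewer cells of a type and less RNA per cell cannot be told apart.

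As background, interleukin-1α and interleukin-1β are ligands of the same receptor, and the interleukin-1 receptor antagonist (*Il1rn*) binds that receptor without signalling. Pro-interleukin-1β and pro-interleukin-18 are cut by caspase-1 in inflammasomes before release. Tumour necrosis factor (*Tnf*) and interleukin-6 are early products of activated macrophages, while interleukin-10 damps activation. Inducible nitric oxide synthase (*Nos2*) and arginase 1 (*Arg1*) both consume arginine and are widely used as marks of classical and alternative activation. Interleukin-1 and tumour necrosis factor are known to favour osteoclast formation beside RANKL.

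Upstream sequences of 7 of the 10 genes were found in RefSeq (GRCm38.p6), with 3 start sites for *Il1rn*. The 250 bases before the start are printed for the interleukin-1 ligands *Il1b*, which fell over the 3 days in both labels, and *Il1a*, which fell in WT, for the first start of their antagonist, which rose in both, and for *Saa3*, which differed most between single libraries. Each is written 5′ to 3′ on the strand of its gene, and capitals mark matches on either strand to 5 short motifs: κB (GGNNTTTCC), AP-1 (TGANTCA), C/EBP (TTGCNNAA), STAT (TTCNNNGAA) and PU.1 (GAGGAA).
Il1a, chr2:129309973-129310222, minus strand: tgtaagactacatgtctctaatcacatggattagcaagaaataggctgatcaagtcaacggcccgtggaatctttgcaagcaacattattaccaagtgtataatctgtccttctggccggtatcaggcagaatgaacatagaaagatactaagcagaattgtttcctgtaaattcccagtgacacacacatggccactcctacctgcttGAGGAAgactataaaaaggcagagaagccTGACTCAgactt
Il1b, chr2:129371140-129371389, minus strand: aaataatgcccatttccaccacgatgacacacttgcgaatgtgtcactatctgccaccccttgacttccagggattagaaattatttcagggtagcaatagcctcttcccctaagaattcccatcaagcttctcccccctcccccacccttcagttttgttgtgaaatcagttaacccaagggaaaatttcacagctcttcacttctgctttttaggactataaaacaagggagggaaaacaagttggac
Il1rn, first start, chr2:24336610-24336859, plus strand: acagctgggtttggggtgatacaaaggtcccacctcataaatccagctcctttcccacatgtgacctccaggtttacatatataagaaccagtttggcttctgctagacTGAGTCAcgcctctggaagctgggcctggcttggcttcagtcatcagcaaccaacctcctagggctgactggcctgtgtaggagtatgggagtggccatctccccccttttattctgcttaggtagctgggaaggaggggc
Saa3, chr7:46715677-46715926, minus strand: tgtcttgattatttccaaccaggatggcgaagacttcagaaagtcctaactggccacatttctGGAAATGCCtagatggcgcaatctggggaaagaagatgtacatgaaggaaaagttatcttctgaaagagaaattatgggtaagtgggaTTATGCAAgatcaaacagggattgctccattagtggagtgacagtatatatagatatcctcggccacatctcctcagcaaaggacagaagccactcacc
The *Il1a* window held an AP-1 match (TGACTCA) at 12 to 6 bases before the start and a PU.1 match at 41 to 36 bases before it. The *Il1b* window held none of the 5 motifs in this form. The first *Il1rn* window held 1 AP-1 match (TGAGTCA), and the window of a later start, at chr2:24345121-24345370, held 1 κB match (GGTTTTTCC). *Saa3* held a κB match (GGAAATGCC) and a C/EBP match (TTATGCAA). *Il6*, barely detected here, was the 1 gene with κB, AP-1 and C/EBP matches together, and *Il18* had none. The *Il18* window (chr9:50554450-50554699) does not adjoin the counted *Il18* gene, which begins downstream at base 50575273. Of 32851 windows of all genes, 4.93% held the κB motif, 6.75% AP-1, 9.56% C/EBP, 7.02% STAT and 23.3% PU.1. Annotated exons cover 7 bases of the printed *Il1rn* window and 24 of that of *Saa3*. A match describes letters and is not a site of binding, and no match says only that these letters are not in the window.

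Per transcript length, the genes ranged widely at day 0. In the deposited FPKM values *Il18* was the highest in WT day 0, at 12.8 ± 4.68 (SD, n = 3), followed by *Il10* at 5.49 ± 1.09, and the libraries of these did not overlap. *Saa3* (3.67 ± 2.12), *Arg1* (3.29 ± 3.96), *Il1rn* (2.50 ± 2.07), *Il1b* (1.44 ± 0.816), *Tnf* (1.43 ± 0.743) and *Il1a* (1.00 ± 0.550) came next, and each overlapped its neighbour in this order. *Nos2* (0.0657 ± 0.0738) and *Il6* (0.00575 ± 0.00996) were at the bottom, and *Nos2* lay below every *Il1a* library.

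The order was different at day 3. In WT day 3 *Il1rn* was first at 14.2 ± 4.43 FPKM, overlapping *Arg1* at 7.04 ± 3.37, which overlapped *Il18* at 4.70 ± 1.29. *Tnf* (1.24 ± 0.194) and *Il10* (1.01 ± 0.0353) followed without overlap, and *Il1b*, *Nos2* and *Il1a* lay between 0.122 and 0.169 FPKM with overlapping libraries. *Saa3* was listed at 0 in the 3 libraries. In KO day 3 *Arg1* (26.5 ± 28.9) and *Il1rn* (16.9 ± 10.7) had the highest means, and each overlapped the next in this order down to *Il18* (5.02 ± 1.96). *Il18* and *Tnf* (1.15 ± 0.236) did not overlap.

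**Figure D1:**
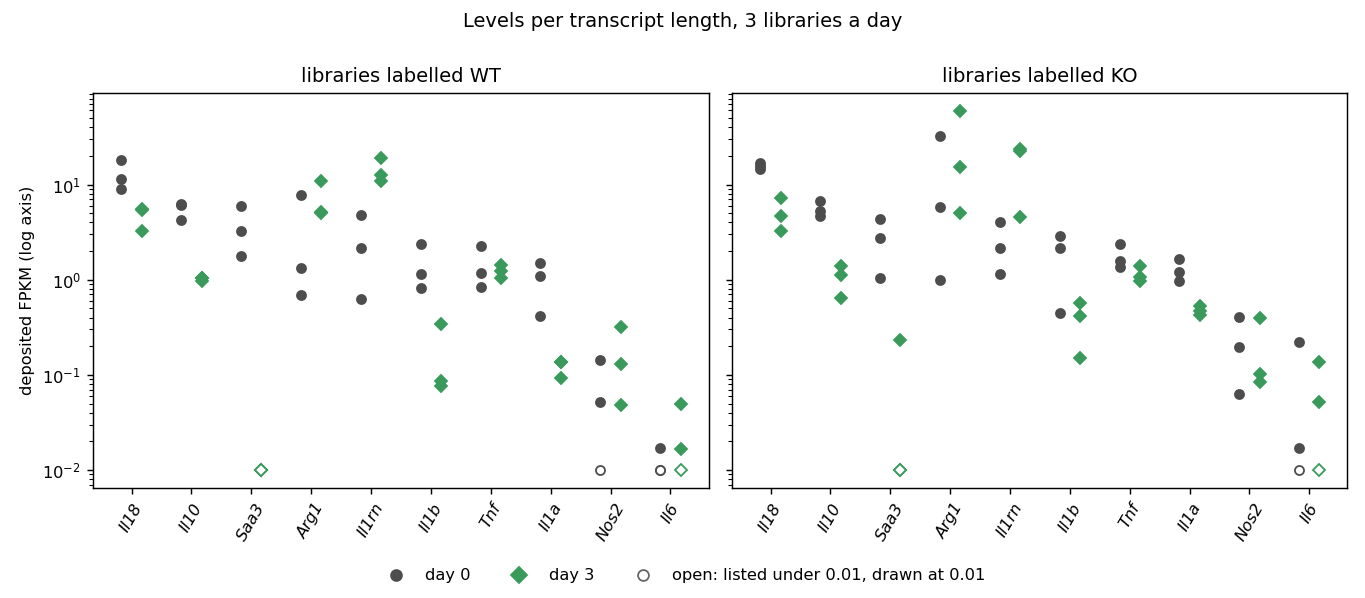
Deposited FPKM of the 10 genes on a log axis at day 0 (grey circles) and day 3 (green diamonds), 1 point per library, with libraries labelled WT on the left and KO on the right and values under 0.01 drawn open at 0.01. *Il18* was highest at day 0 in WT (8.98 to 18 FPKM), and *Il1rn* was highest at day 3 in WT (10.9 to 19.2 FPKM).

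The first question was how these genes moved over the 3 days of RANKL. In the libraries labelled WT, 5 of the 9 tested genes fell from day 0 to day 3 (*Il1a*, *Il1b*, *Il10*, *Il18*, *Saa3*) and 1 rose (*Il1rn*), a count of 6 where 50.2% of all genes tested were called at an adjusted p under 0.05. In those labelled KO, 3 fell (*Il1b*, *Il10*, *Il18*) and *Il1rn* rose, 4 of 9 against 42.5% of all genes. The share called is thus near that of all genes in both labels. The median log2 fold change of the 9 genes was -1.79 (WT) and -1.72 (KO), against medians of -0.031 and -0.0052 over all genes tested. The libraries of day 3 did not overlap those of day 0 for 6 of 9 genes in WT, where 62.5% of all genes tested did not overlap, and for 5 of 9 in KO, against 58.8%.

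**Figure D2:**
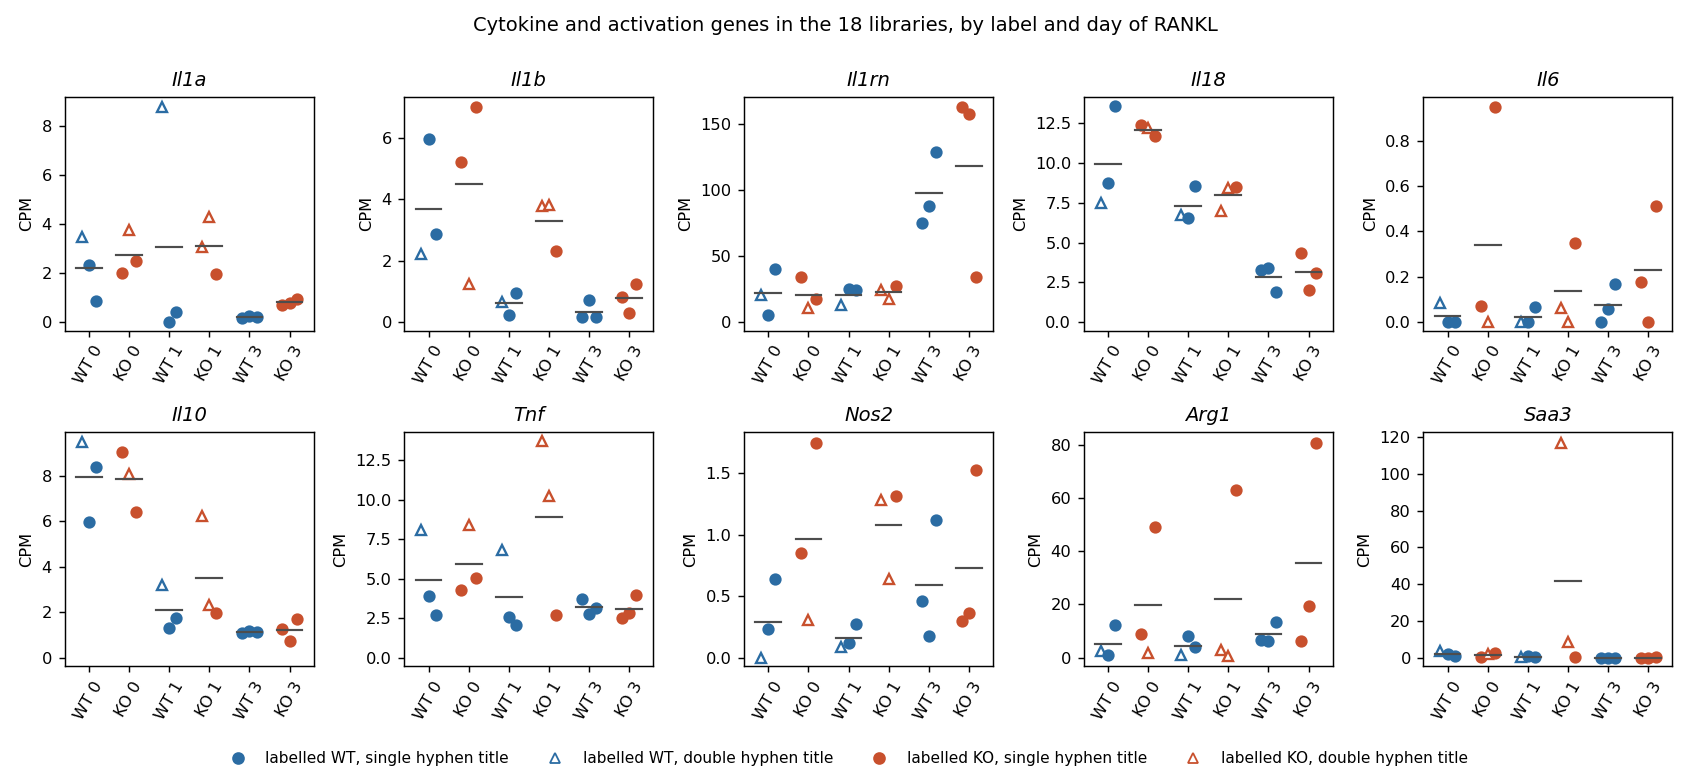
CPM of the 10 genes in each of the 18 libraries, grouped by label and day of RANKL, with the group mean as a line and double hyphen titles as open triangles. *Il10* and *Il18* stepped down to 0.734 to 1.7 and 1.91 to 4.35 CPM at day 3, *Il1rn* reached 33.9 to 163 CPM, and *Saa3* and *Arg1* were high in single libraries labelled KO.

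*Il1b* encodes the secreted form of interleukin-1 that inflammasomes process. In WT it was 2.23, 5.96 and 2.86 CPM at day 0, 0.667 and 0.241 CPM in the day 1 libraries numbered 1 (double and single hyphen), 0.965 CPM in day 1 library 2, and 0.155, 0.706 and 0.168 CPM at day 3. These day 3 levels rest on 3, 12 and 3 counts. All day 3 libraries lay below all day 0 libraries, and the fall (log2 fold change -3.41, SE 0.776, edgeR adjusted p = 0.00245) was called, also without any 1 library (-4.44 without WT day 3 library 2). At day 1 the difference of -2.56 was not called (adjusted p = 0.0771), though the libraries did not overlap. In KO the values were 5.21, 1.23 and 6.99 CPM at day 0, 3.78, 3.80 and 2.30 CPM at day 1, and 0.834, 0.306 and 1.25 CPM at day 3. The day 0 library 2 (1.23 CPM) overlapped day 3, and the fall (-2.48, SE 0.721, adjusted p = 0.0135) was lost without KO day 0 library 3 (adjusted p = 0.0602) or KO day 3 library 2 (adjusted p = 0.0593).

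*Il1a* lies 54598 bases from *Il1b* on chromosome 2 (GRCm38, 129299610 to 129309972, minus strand) and encodes the cell-associated form. In WT it was 3.46, 2.32 and 0.858 CPM at day 0 and 0.155, 0.235 and 0.224 CPM at day 3, which rests on 3 to 4 counts per library. The fall (-3.38, SE 1.24, adjusted p = 0.0347) was lost without WT day 0 library 1 (adjusted p = 0.0993) or library 2 (0.0662), and without any of the 3 day 3 libraries (0.0792 to 0.0961). In KO it was 2.00, 3.77 and 2.48 CPM at day 0 and 0.715, 0.795 and 0.963 CPM at day 3. These did not overlap either, but the difference of -1.72 (SE 1.09) was not called (adjusted p = 0.213). At day 1 the WT libraries spread from 0 counts (library 1, single hyphen) over 0.413 CPM (library 2) to 8.75 CPM (library 1, double hyphen). The WT fall from day 1 to day 3 (-3.83, adjusted p = 0.03) thus rested on that last library, without which the value was 0.055 (adjusted p = 0.98).

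*Il1rn*, the antagonist, went the other way. WT levels were 20.3, 5.5 and 40.5 CPM at day 0, 12.7, 25.3 and 24.4 CPM at day 1 and 75.2, 88.1 and 129 CPM at day 3. Every WT day 3 library was above every earlier one, with a rise of 2.14 on the log2 scale from day 0 (4.41-fold, SE 0.651, adjusted p = 0.014) and 2.22 from day 1 (adjusted p = 0.0186). KO levels were 34.0, 10.9 and 17.9 CPM at day 0, 24.6, 17.7 and 27.5 CPM at day 1 and 163, 158 and 33.9 CPM at day 3. The rise in KO was 2.50 (5.64-fold, SE 0.659, adjusted p = 0.00798), and KO day 3 library 3, at 33.9 CPM, stood at the level of the highest day 0 library. Without the 5 double hyphen libraries the adjusted p was 0.0541 in WT and 0.0522 in KO, at rises of 2.15 and 2.25. Without WT day 0 library 3 the WT rise was 2.95.

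Stromal markers rose in the same day 3 libraries as *Il1rn*, and their part in its rise was not tested. KO day 3 library 3 had the lowest *Il1rn* level of the day and 29600 CPM of stromal and osteoblast markers, close to the 30100 CPM of KO day 3 library 2, which had 158 CPM of *Il1rn*. The members of that list split. In KO day 3 libraries 1, 2 and 3, *Col1a1* was 8270, 11700 and 12100 CPM, and *Postn* and *Pdgfrb* were also highest in library 3. *Alpl* (127, 113 and 20.6 CPM), *Lum* (13.3, 15.3 and 1.42 CPM) and *Cxcl12* (1550, 1400 and 623 CPM) were lowest in library 3, as *Il1rn* was. KO day 3 library 3 also had the lowest sum of osteoclast markers at day 3 (8290 CPM) and the highest sums of macrophage (17100 CPM) and neutrophil (1330 CPM) markers. Among all genes tested, those most like *Il1rn* over the 18 libraries were *Lynx1* (Pearson r = 0.941), *Mme* (0.922), a membrane peptidase, and *Met* (0.919), the receptor of hepatocyte growth factor. These correlations describe libraries that share days and depth, with no test.

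*Il18* encodes a cytokine of the interleukin-1 family that is present before activation. In WT it stepped down from 7.50, 8.75 and 13.6 CPM at day 0 over 6.75, 6.56 and 8.55 CPM at day 1 to 3.30, 3.41 and 1.91 CPM at day 3. In KO it was 12.4, 12.2 and 11.7 CPM, then 6.99, 8.45 and 8.49 CPM, then 4.35, 2.02 and 3.06 CPM. Day 3 lay below both earlier days in each label. The log2 fold changes from day 0 were -1.79 (3.46-fold lower, SE 0.298, adjusted p = 0.000275) in WT and -1.94 (3.84-fold lower, SE 0.299, adjusted p = 0.00025) in KO, and both were called under every alternative run. From day 1 to day 3 the change was -1.34 in each label (adjusted p = 0.00397 in WT and 0.00468 in KO), and the KO call was lost without the double hyphen libraries (adjusted p = 0.0875).

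Of 13 listed receptors, inhibitors and adaptors of interleukin-1 and interleukin-18, 7 fell and 2 rose in WT by day 3, and 6 fell in KO. Over these days 50.2% (WT) and 42.5% (KO) of all genes tested were called in either direction. *Il18bp*, the secreted inhibitor of interleukin-18, fell with its ligand, from 85.3 ± 37.2 to 15.5 ± 9.62 CPM in WT (-2.46, adjusted p = 0.00437) and from 80.1 ± 17 to 25.0 ± 14.8 CPM in KO (-1.68, adjusted p = 0.0341). *Il18rap*, a chain of the interleukin-18 receptor, fell by 2.84 on the log2 scale in WT (adjusted p = 0.00873) and with a change of -2.51 in KO (adjusted p = 0.0152). The other chain, *Il18r1*, was low at WT day 0 (0.442 ± 0.294 CPM) and had 0 counts in the 3 WT day 3 libraries. In KO *Il18r1* was 1.18 ± 0.179 CPM at day 0 and 0.489 ± 0.447 CPM at day 3, a difference of -1.25 that was not called (adjusted p = 0.254). Of 10 inflammasome and processing genes, 8 fell and none rose in each label (median -1 in both), against the same shares of all genes. *P2rx7*, the ATP-gated channel that triggers the NLRP3 inflammasome, fell in WT (-2.30, SE 0.229, adjusted p = 7.64e-06) and in KO (-1.65, adjusted p = 0.00011). The sensors *Nlrp1b* (-2.11 and -1.34) and *Nlrc4* (-1.91 and -1.37) fell in WT and KO as well. Neutrophils also carry several of these transcripts, and all 12 neutrophil markers fell over the same days in both labels. Their part in these falls was not tested.

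*Il10* encodes a cytokine that macrophages make and that restrains them. WT levels were 9.48, 5.96 and 8.37 CPM at day 0, 3.17, 1.32 and 1.72 CPM at day 1 (library 1 with double hyphen, library 1 with single hyphen, library 2) and 1.08, 1.18 and 1.12 CPM at day 3. KO levels were 9.06, 8.08 and 6.41 CPM, then 6.22, 2.29 and 1.95 CPM, then 1.25, 0.734 and 1.7 CPM. Both later days lay below day 0 in each label. By day 3 *Il10* had fallen in WT (log2 fold change -2.81, 7-fold lower, SE 0.459, adjusted p = 0.000238) and in KO (-2.66, 6.34-fold lower, SE 0.457, adjusted p = 0.000525), called under every alternative run. It was the 1 gene of the 9 called between day 0 and day 1 in WT (-1.95, SE 0.443, adjusted p = 0.0427), where 2.35% of all genes tested were called. That call was lost without WT day 0 library 1 (adjusted p = 0.0789) or 2 (0.126), WT day 1 library 1 with single hyphen (0.217) or WT day 1 library 2 (0.105). In KO none of the 9 was called at day 1 by edgeR or DESeq2, which called 0.0211% and 1.2% of all genes they tested. At an unadjusted p under 0.05 there were 2 of 9, against 10.2% of all genes. *Il10* there differed by -1.17 (95% interval -2.08 to -0.25, adjusted p = 0.381).

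*Il6* was close to absent. It had 38 counts over the 18 libraries and 0 in 8 of them. The WT counts were 1, 0 and 0 at day 0, 0 (library 1, double hyphen), 0 (library 1, single hyphen) and 1 at day 1, and 0, 1 and 3 at day 3. The KO counts were 1, 0 and 13, then 1, 0 and 5, then 3, 0 and 9. The highest count of each day was in the KO library numbered 3. The 6 KO libraries numbered 1 and 2 held 0 to 3 counts, as did the WT libraries.

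Of 10 genes of interleukin-6 and interleukin-10 reception and signalling, 6 fell and 1 rose in WT by day 3, and 5 fell and 1 rose in KO. Among all genes tested, 50.2% (WT) and 42.5% (KO) were called in either direction. The receptor chains *Il6ra* (438 ± 108 to 102 ± 14.4 CPM in WT, adjusted p = 8.24e-06) and *Il10ra* (221 ± 16.8 to 56.7 ± 20.2 CPM in WT, adjusted p = 0.000221) fell, also in KO (-1.95 and -1.58). The gene that rose was *Socs3*, a feedback inhibitor of interleukin-6 signalling. It went from 11.5 ± 3.55 to 40.7 ± 4.38 CPM in WT (1.82, adjusted p = 0.00267) and from 17.7 ± 4.94 to 72.2 ± 33.7 CPM in KO (2.03, adjusted p = 0.00179).

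*Tnf* did not pass the test over the 3 days in either label. WT levels were 8.08, 3.87 and 2.72 CPM at day 0, 6.83, 2.59 and 2.07 CPM at day 1 (library 1 with double hyphen, library 1 with single hyphen, library 2) and 3.72, 2.76 and 3.14 CPM at day 3. KO levels were 4.28, 8.38 and 5.02 CPM, then 13.7, 10.2 and 2.71 CPM, then 2.50, 2.81 and 3.97 CPM. The difference from day 0 to day 3 was -0.60 in WT (95% interval -1.81 to 0.61, adjusted p = 0.384) and -0.93 in KO (-2.14 to 0.28, adjusted p = 0.199). The KO day 3 libraries lay below those of day 0 and the WT ones overlapped. The WT value turned to 0.023 without the double hyphen libraries. From day 1 to day 3 the KO difference of -1.52 (adjusted p = 0.0591) was not called. It passed the threshold without KO day 1 library 3 (-1.91, adjusted p = 0.0138) and was 0.22 without the double hyphen libraries. Of 10 receptor and signalling genes, 2 rose and 3 fell in WT by day 3, and 1 rose and 3 fell in KO. These counts are near the 50.2% (WT) and 42.5% (KO) of all genes called in either direction. *Traf1*, an adaptor induced by NF-κB, rose from 5.90 ± 1.15 to 81.5 ± 20.2 CPM in WT (3.79, adjusted p = 0.000577) and from 9.17 ± 1.06 to 52.6 ± 24.1 CPM in KO (2.52, adjusted p = 0.00772). *Tnfrsf1b*, a receptor of tumour necrosis factor, fell in WT (-2.05, adjusted p = 0.000323) and in KO (-1.90, adjusted p = 0.000812). *Tnfaip3*, the NF-κB inhibitor A20, rose in WT (1.08, adjusted p = 0.034) and differed by 0.72 in KO (adjusted p = 0.151).

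**Figure D3:**
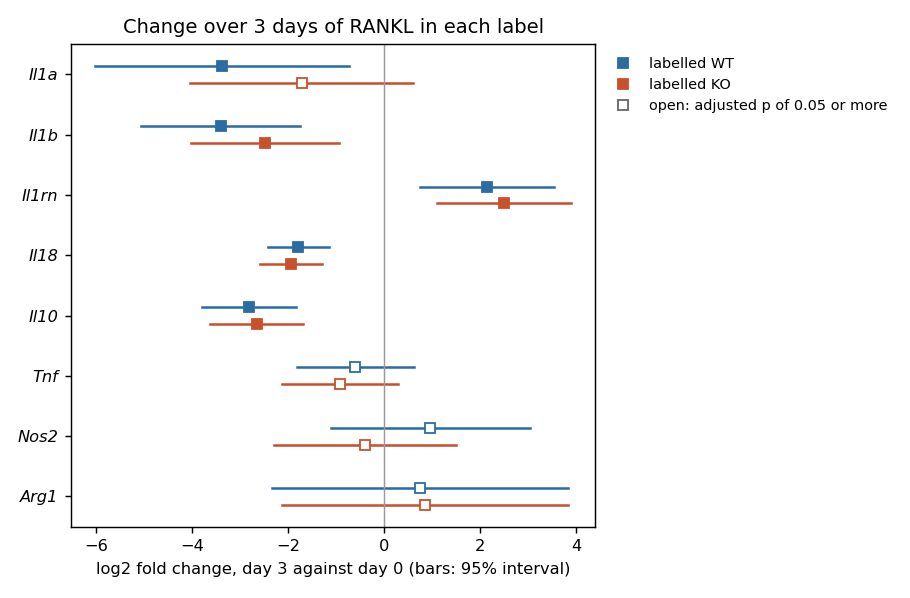
Log2 fold change from day 0 to day 3 with its 95% interval for 8 genes in libraries labelled WT (blue) and KO (orange), filled where the adjusted p was under 0.05. *Il1b*, *Il10* and *Il18* lie left of 0 and *Il1rn* right of it in both labels, while the intervals of *Tnf*, *Nos2* and *Arg1* include 0. *Il6* (not tested) and *Saa3* (at 3 or fewer counts in each day 3 library) are not drawn.

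*Tnf* and *Il1a* followed the style of the titles on days 0 and 1. *Tnf* was 6.83 to 13.7 CPM in the 5 double hyphen libraries and 2.07 to 5.02 CPM in the 7 single hyphen libraries of these days. *Il1a* was 3.08 to 8.75 CPM against 0 to 2.48 CPM. Neither overlapped. In a fit with the style as a covariate, *Tnf* was higher in double hyphen libraries by 1.45 (SE 0.21, adjusted p = 0.00065) and *Il1a* by 1.94 (SE 0.634, adjusted p = 0.04), while *Arg1* was lower (-3.59, SE 0.905, adjusted p = 0.0124). The other 6 tested genes were not called. Of all genes tested, 23.2% were called for the style. The 5 libraries belong to both labels, and the 6 libraries of day 3 all have a single hyphen.

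The genes most like *Tnf* over the 18 libraries were *Ap3s1-ps2* (Pearson r = 0.948), a pseudogene, *Ins2* (0.914) and *Iapp* (0.912), which encode the pancreatic islet hormones insulin and amylin. *Ins2* was at 0 counts in all 13 single hyphen libraries and at 7.91 CPM in WT day 0 library 1, 7.83 CPM in WT day 1 library 1, 12 CPM in KO day 0 library 2, and 50.5 and 8.09 CPM in KO day 1 libraries 1 and 2. *Iapp* was likewise at 0 in the 13 and at 1.48 to 14.1 CPM in the 5. *Ins1*, looked at after these values were seen, was at 0 in the 13 and at 2.06 to 12.1 CPM in the 5. These islet transcripts were thus detected in the double hyphen libraries and in none of the others. Their part in the *Tnf* and *Il1a* levels was not tested.

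**Figure D4:**
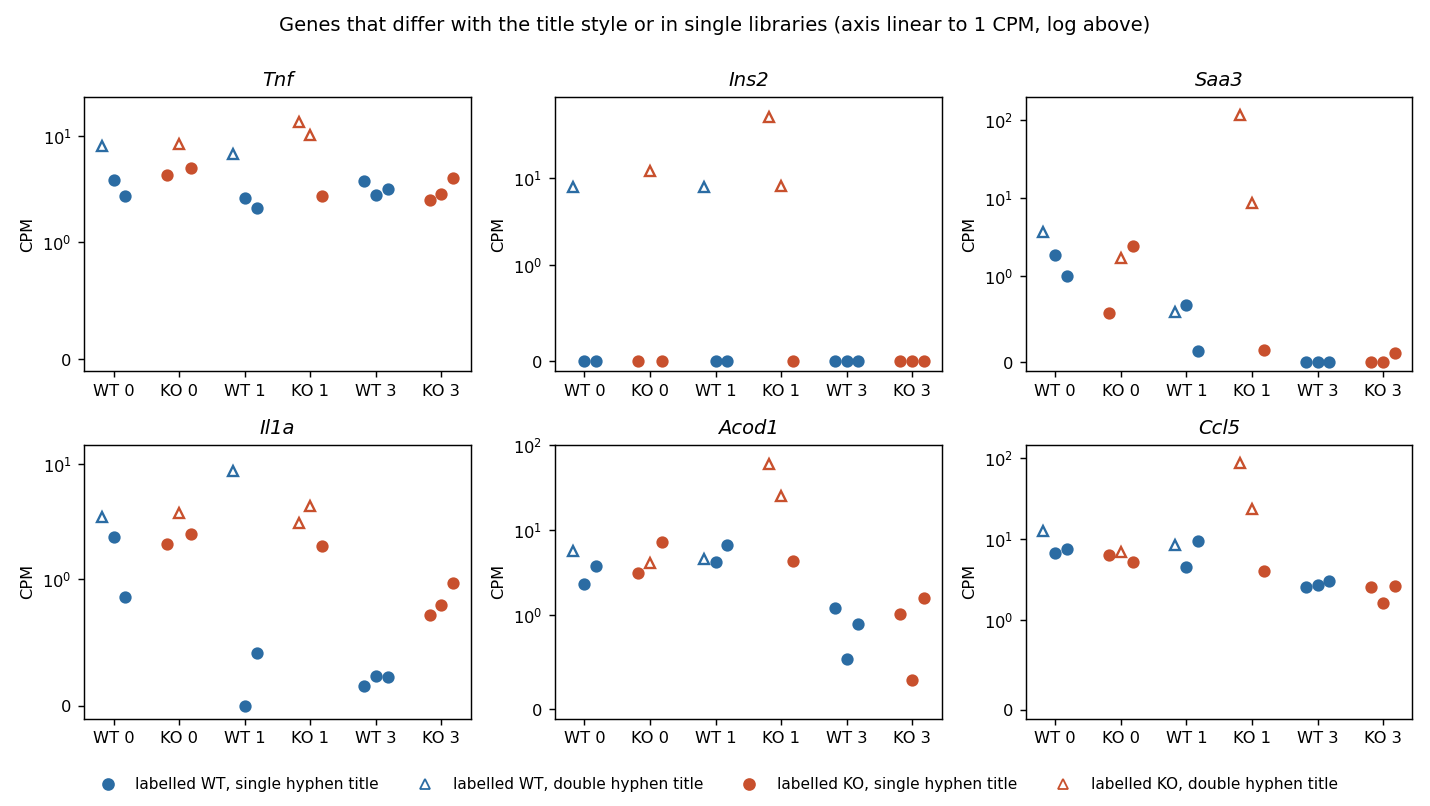
CPM of *Tnf*, *Ins2*, *Saa3*, *Il1a*, *Acod1* and *Ccl5* in each library by label and day, on an axis that is linear to 1 CPM and log above, with double hyphen titles as open triangles. *Ins2* is above 0 in the 5 double hyphen libraries alone (7.83 to 50.5 CPM), and KO day 1 libraries 1 and 2 are highest for *Saa3* (117 and 8.66 CPM), *Acod1* and *Ccl5*.

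*Saa3*, which encodes a serum amyloid A that macrophages make, was set by a single library at day 1. WT levels were 3.71, 1.86 and 1.00 CPM at day 0 and 0.583 (library 1, double hyphen), 0.662 (library 1, single hyphen) and 0.138 CPM at day 1. KO levels were 0.571, 1.69 and 2.40 CPM at day 0 and 117, 8.66 and 0.139 CPM at day 1. KO day 1 library 1 held 1825 of the 2116 *Saa3* counts of the series. At day 3 the 3 WT libraries had 0 counts, and KO had 0, 0 and 2. Taking 3 counts in each day 3 library as the floor, mean *Saa3* was at least 13.1-fold lower at day 3 than at day 0 in WT and at least 8.77-fold lower in KO. The adjusted p-values of this paragraph belong to the edgeR log2 fold changes and do not test these bounds. From day 0 to day 3 the edgeR change was called in WT (-8.04, adjusted p = 0.0262) and not in KO (-5.04, adjusted p = 0.0739). Without WT day 0 library 1 the WT bound was 8.58-fold (adjusted p = 0.0718), and the call was also lost without any of the WT day 3 libraries (0.0589 to 0.0621). From KO day 1 to day 3 it was at least 236-fold lower (adjusted p = 0.00454), and at least 24.8-fold lower without KO day 1 library 1 (adjusted p = 0.0167). The 24.8-fold bound rests on KO day 1 library 2 (121 counts), as library 3 had 2 counts. Over 15 alternatives the edgeR or DESeq2 change from KO day 1 to day 3 ran from -12.88 to -1.62. The listed paralogs *Saa1* and *Saa2* had 0 counts in every library.

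The genes most like *Saa3* were the chemokine *Ccl5* (Pearson r = 0.922), *N4bp1* (0.891) and *Acod1* (0.883, listed as *Irg1*), which makes itaconate in activated macrophages. *Ccl5* was 84.9 and 23.3 CPM in KO day 1 libraries 1 and 2, and 1.59 to 12.4 CPM in the other 16 libraries. *Acod1* was 58.9 and 25.2 CPM there, and 0.306 to 7.14 CPM in the others. *Tnf* was highest in the same libraries (13.7 and 10.2 CPM), while *Il6* had 1 and 0 counts in them. Both libraries carry double hyphen titles and islet transcripts.

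Of 7 tested acute phase and antimicrobial genes, 2 fell in WT and 3 in KO by day 3, where 50.2% (WT) and 42.5% (KO) of all genes were called. *Lcn2*, lipocalin 2, fell from 138 ± 79.3 to 3.69 ± 2.02 CPM in WT (-5.22, adjusted p = 0.000647) and from 535 ± 327 to 39.1 ± 38.0 CPM in KO (-3.77, adjusted p = 0.00433). *Lcn2* is also a neutrophil granule gene, and the neutrophil markers given above fell over the same days.

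*Nos2* was near the detection limit throughout. WT levels were 0, 0.232 and 0.644 CPM at day 0, 0.0833, 0.120 and 0.276 CPM at day 1 and 0.465, 0.176 and 1.12 CPM at day 3. KO levels were 0.856, 0.308 and 1.75 CPM, then 1.28, 0.644 and 1.32 CPM, then 0.298, 0.367 and 1.53 CPM. The largest count of *Nos2* in a library was 27. From day 0 to day 3 it differed by 0.96 in WT (95% interval -1.12 to 3.04, adjusted p = 0.422) and -0.40 in KO (-2.29 to 1.49, adjusted p = 0.737).

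*Arg1* varied more within groups than between days. WT levels were 2.31, 1.08 and 12.2 CPM at day 0, 0.833, 8.06 and 3.93 CPM at day 1 and 6.56, 6.41 and 13.4 CPM at day 3. KO levels were 8.77, 1.69 and 49.0 CPM, then 2.88, 0.644 and 62.9 CPM, then 6.25, 19.3 and 80.7 CPM. The KO library numbered 3 was the highest of its day each time, as for *Il6*. The change from day 0 to day 3 was 0.74 in WT (95% interval -2.35 to 3.84, adjusted p = 0.682) and 0.84 in KO (-2.14 to 3.82, adjusted p = 0.648), and without KO day 3 library 3 it was -0.63 in KO. The 3 KO libraries numbered 3 also had the highest sums of neutrophil markers of their day (12900, 3660 and 1330 CPM). The same held for mast cell, basophil and eosinophil markers (257, 55.8 and 7.87 CPM) and for dendritic cell markers (96.8, 196 and 98.3 CPM). In these libraries the neutrophil sum and the mast cell, basophil and eosinophil sum fell over the days. Their dendritic cell sum was higher at day 1 than at day 0 or day 3, and their *Arg1* level rose. The part of these cells in the *Arg1* level was not tested. The genes most like *Arg1* were *Lrrk2* (Pearson r = 0.896), *Gzmc* (0.887) and *Clstn1* (0.886).

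Of 10 genes of arginine and nitric oxide metabolism, 4 rose and 3 fell in WT by day 3, and 5 rose and 2 fell in KO. The shares called among all genes, in either direction, were 50.2% (WT) and 42.5% (KO). *Slc7a1*, the cationic amino acid transporter that takes up arginine, rose from 12.4 ± 9.01 to 104 ± 21.4 CPM in WT (3.07, adjusted p = 0.000195) and from 18.1 ± 1.31 to 77.5 ± 9.86 CPM in KO (2.10, adjusted p = 0.00305). *Arg2*, the mitochondrial arginase, fell in WT (-2.66, adjusted p = 0.00523) and in KO (-2.84, adjusted p = 0.00331). *Spr*, an enzyme that makes the tetrahydrobiopterin cofactor of nitric oxide synthases, rose by 1.27 in WT (adjusted p = 0.000904) and 0.83 in KO (adjusted p = 0.0153). Other listed enzymes of this cofactor did not rise with it. *Pts* went from 20.7 to 25.2 CPM at day 0 to 10.6 to 13.6 CPM at day 3 in WT. In KO it went from 23.8 to 28.2 CPM to 10.9 to 14.3 CPM. *Gch1* overlapped between these days in WT and was lower at day 3 in KO (12.8 to 19.5 against 10.3 to 11.4 CPM).

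Other activation genes that were called mostly fell. Of 7 tested classical activation genes, 4 fell and none rose in each label (medians -2.15 in WT and -1.47 in KO), near the 50.2% (WT) and 42.5% (KO) of all genes called in either direction. *Cd40*, a costimulatory receptor, went from 18.2 ± 1.37 to 3.59 ± 1.18 CPM in WT (-2.34, adjusted p = 0.000116) and fell in KO (-1.5, adjusted p = 0.00314). *Il27* (-2.54 and -2.01) and *Acod1* (-2.15 and -2.28) fell in WT and KO. Of 9 alternative activation genes, 7 fell and 1 rose in WT, and 6 fell and 1 rose in KO (medians -2.09 and -1.40), against the same shares. *Cd163*, a scavenger receptor, fell from 88.2 ± 47.1 to 5.40 ± 1.95 CPM in WT (-4.03, adjusted p = 4.67e-05) and in KO (-2.90, adjusted p = 0.000514). *Chil3*, a chitinase-like protein, fell from 313 ± 194 to 4.99 ± 2.44 CPM in WT (-5.97, adjusted p = 0.00114) and in KO (-3.51, adjusted p = 0.0171). *Mgl2*, a lectin, fell in WT (-4.03, adjusted p = 0.00289) and differed by -1.72 in KO (adjusted p = 0.112). Macrophage markers fell over the same days (7 of 8 in each label), so these falls and those of the cytokines cannot be told apart from fewer macrophages. All 12 neutrophil markers fell over these days too, and the part of neutrophils in the *Chil3* fall was not tested.

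From day 1 to day 3, 3 of the 9 genes were called in WT (*Il1a*, *Il1rn*, *Il18*), against 32% of all genes tested, and 5 in KO (*Il1b*, *Il1rn*, *Il10*, *Il18*, *Saa3*), against 28%. The WT call of *Il1rn* was lost without WT day 1 library 1 with double hyphen (adjusted p = 0.0752) and without WT day 3 library 3 (0.0649). In KO, *Il1b* fell (-2.03, adjusted p = 0.0463), lost without either double hyphen library of KO day 1 (0.12 each), KO day 3 library 1 (0.106) or KO day 3 library 2 (0.161). *Il10* fell (-1.5, adjusted p = 0.0228), and without KO day 1 library 1, its highest at 6.22 CPM, the change was -0.76 (0.197). That call was lost also without KO day 3 library 1 (0.0615) or 2 (0.101). *Il1rn* rose by 2.35 (adjusted p = 0.0165), lost without KO day 1 library 1 (0.0542), KO day 1 library 2 (0.0694), KO day 3 library 1 (0.0551) or KO day 3 library 2 (0.0606). Without the double hyphen libraries, which left KO day 1 with library 3 alone, none of the 5 KO calls was made.

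The second question was whether the label mattered. None of the 9 genes was called between the labels at day 0, 1 or 3 or in the average over days, where 0.119%, 0.112%, 0.14% and 1.59% of all genes tested were called by edgeR. At an unadjusted p under 0.05 there were 0, 4, 0 and 3 of 9, against 7.59%, 7.9%, 10.7% and 18.4% of all genes. DESeq2 called 0, 1, 0 and 1 of 9, against 0.451%, 0.535%, 1.66% and 6.91% of the genes it tested. No gene of the 14241 was called by edgeR for the difference between the labels in the change from day 0 to day 3 (0%), and none of the 9 had an unadjusted p under 0.05 there, against 5.4% of all genes. DESeq2 called none of the 9 there and 0.0282% of the genes it tested. These interaction values ran from -1.36 (*Nos2*, 95% interval -4.16 to 1.45) to 3.01 (*Saa3*, at the floor on day 3 in both labels), so differences of severalfold remain inside the intervals. The interval was narrowest for *Il18*, at -1.03 to 0.73 around -0.15, a value that changed sign without WT day 0 library 1 (0.0062) or KO day 3 library 2 (0.083).

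At day 1 the 4 genes with an unadjusted p under 0.05, none with an adjusted p under the threshold in edgeR, had higher means in the libraries labelled KO. *Il1b* was 2.30 to 3.80 CPM in KO and 0.241 to 0.965 CPM in WT, a log2 difference of 2.40 (SE 0.741, adjusted p = 0.482). *Nos2* was 0.644 to 1.32 CPM against 0.0833 to 0.276 CPM, a difference of 2.69 (SE 1.03, adjusted p = 0.568). Neither overlapped, which held for 2 of 9 genes and for 12.6% of all genes tested. *Saa3* (6.48, SE 1.62, adjusted p = 0.359) and *Tnf* (1.22, SE 0.566, adjusted p = 0.631) overlapped. In the double hyphen libraries *Tnf* was 13.7 and 10.2 CPM in KO and 6.83 CPM in WT. In the single hyphen libraries it was 2.71 CPM in KO and 2.59 and 2.07 CPM in WT. Over 17 alternatives the *Tnf* difference ran from 0.22 to 1.92. The *Saa3* value passed the threshold without KO day 1 library 3 (7.06, adjusted p = 0.0331) and with DESeq2 (adjusted p = 0.0097), and it was -1.49 without the double hyphen libraries. Over 16 alternatives its adjusted p ran from 0.0097 to 0.867.

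At day 3 the *Il1a* libraries labelled KO (0.715 to 0.963 CPM) lay above those labelled WT (0.155 to 0.235 CPM), with a difference of 1.97 (95% interval -0.69 to 4.64, adjusted p = 0.605). It was the 1 of 9 genes whose libraries did not overlap there, against 29.2% of all genes. In the average over days *Il1b* (1.30, SE 0.421, adjusted p = 0.117), *Nos2* (1.56, SE 0.557, adjusted p = 0.152) and *Arg1* (2.09, SE 0.847, adjusted p = 0.203) were the genes with an unadjusted p under 0.05. *Nos2* passed the threshold with the title style as a covariate (1.81, adjusted p = 0.0446) and without WT day 0 library 3 (1.99, adjusted p = 0.0465), and *Il1b* with DESeq2 (1.32, adjusted p = 0.0386). The *Arg1* difference was -0.24 without the 3 KO libraries numbered 3. In the same average 4 of 12 neutrophil markers (median 2.11) were called higher in KO than in WT. The same held for 3 of 7 tested acute phase and antimicrobial genes (median 1.08). Of all genes tested, 1.59% were called there in either direction. The part of neutrophils in the *Il1b*, *Nos2* and *Arg1* values was not tested. *Il1a* differed by 0.78 in the average (adjusted p = 0.555) and by 2.06 without WT day 1 library 1 with double hyphen, its highest library, where it was called (adjusted p = 0.0176). The narrowest interval in the average was that of *Il18* (0.18, 95% interval -0.18 to 0.54).

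The remaining genes that moved most like these, over the 18 libraries and with no test, were *Jak3* for *Il1b* (Pearson r = 0.913), *Best1* for *Il1a* (0.952), *Ranbp9* and *Lyn* for *Il10* (0.951 and 0.946), *Fam26f* and *Susd3* for *Il18* (0.951 and 0.949) and *F11r* for *Nos2* (0.862). Among the 9 genes, *Tnf* and *Saa3* were the pair with the highest correlation (0.82), followed by *Il10* and *Il18* (0.80), and *Il1rn* was negatively correlated with *Il1a*, *Il1b*, *Il10*, *Il18*, *Tnf* and *Saa3* (-0.73 to -0.50). The libraries share days, depth and title style.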

How the data were processed

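RNA of 18 libraries was sequenced after total RNA isolation and a SMARTer mRNA kit. The authors estimated FPKM with StringTie and Ballgown, and the submitters' processing notes name GRCm38.p4 and mm10. The deposited table gives raw read counts and FPKM per gene, by the authors, and its counts sum to 13789775 to 17559958 per library. How the counts were made, and whether strand was used, is not given in the sources used here.

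Counts were tested with edgeR 4.0.16 (R 4.3.3) by the quasi-likelihood test after filterByExpr and TMM scaling, in 1 fit of 6 groups and 18 libraries, with Benjamini-Hochberg adjustment over 14241 genes and a threshold of 0.05. CPM are counts over TMM-scaled totals. The standard error was the log2 fold change divided by the square root of F. Where every library of a group had 3 counts or fewer, a fold was computed against 3 counts per library. The procedure was tested on simulated data. The 10 genes and the gene lists were chosen with earlier results of these data known. List genes were named by size of the WT change from day 0 to day 3 among those called whose day 3 and day 0 libraries did not overlap, up to 3 per list, and the 3 genes most correlated with each of the 9 were taken over log2 CPM with a prior count of 2. Alternatives were no filter, a filter of 5 CPM in 3 libraries, DESeq2 1.42.0 and its size factors, library totals, the groups compared alone, a replicate block, the title style as a covariate, the study's unadjusted threshold and each library left out. Leaving out the 5 double hyphen libraries or the 3 KO libraries numbered 3 was chosen after seeing the data.

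Same-numbered libraries deviated together in KO between days 0 and 3 (correlation of deviations 0.13 to 0.398) and between days 1 and 3 (0.156 to 0.34), all 3 pairs over 0.1 in each. No other pair of groups met this in all 3 pairs. Libraries of 1 group differed by more than sampling noise.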

Additional observations from a re-analysis of the deposited data

How the results depend on the processing

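Of 422 log2 fold changes recomputed over 44 results under other settings, 379 kept their direction and side of the threshold, 24 lost a call, 10 gained one and 9 changed sign. With each library left out in turn, 302 of 342 were kept, 31 lost a call, 4 gained one and 5 changed sign. The cause was not tested. Scaling by library totals moved the median of all genes from day 0 to day 3 by a log2 value of 0.36 in WT and 0.29 in KO. *Il10* and *Il18* were called from day 0 to day 3 in both labels under all alternatives run, with log2 fold changes of -2.95 to -2.44 and -1.93 to -1.44 in WT and -3.06 to -2.38 and -2.25 to -1.65 in KO.

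Between WT days 0 and 1, 1 gene was called, against 0 with no filter, 2 with DESeq2, 0 with the compared groups alone, 2 with the study's unadjusted threshold, and 0 to 2 with 1 library left out. With the replicate block it was 0. From WT day 1 to 3 the count fell from 3 to 1 with the block and to 1 without the double hyphen libraries. That count was 1 to 3 over left-out libraries and 1 to 4 over all settings. WT numbers did not pair the libraries. In KO, where they did between days 0 and 3 and days 1 and 3, the replicate block changed no call (4 and 5 genes, *Il10* -2.68 and *Il1rn* 2.49 from day 0). Between KO days 0 and 1 the unadjusted threshold gave 2 in place of 0. From KO day 1 to 3 the count of 5 was 3 with the style covariate, 2 to 6 over left-out libraries and at most 7 over all settings. Between labels at day 1 it was 1 with DESeq2, 4 at the unadjusted threshold and 0 to 1 over left-out libraries, and in the average over days 1 with DESeq2, 1 with the style covariate, 3 at the unadjusted threshold and 0 to 1 over left-out libraries. From day 0 to 3, left-out libraries gave 4 to 6 (WT) and 3 to 4 (KO). *Il1b* in KO was also lost without the 3 KO libraries numbered 3 (adjusted p = 0.0615).

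Signs changed as follows. With the style covariate the WT change from day 0 to day 3 was 0.017 for *Tnf* and -0.23 for *Arg1*. Without the double hyphen libraries it was 0.023 for *Tnf*, *Il1a* from WT day 1 to 3 was 0.083, *Tnf* from KO day 1 to 3 was 0.22, *Saa3* from KO day 0 to 1 was -3.32 and between labels at day 1 -1.49, and the *Il18* interaction was 0.0083. Without the 3 KO libraries numbered 3 the label difference of *Arg1* was -0.24. Over left-out libraries, *Nos2* in KO from day 0 to 3 ran from -1.53 to 0.35 (0.35 without KO day 0 library 3), *Arg1* there from -0.63 to 2.78, *Il1a* from WT day 1 to 3 from -4.40 to 0.055, and the *Il18* interaction from -0.46 to 0.083.

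*Il1a*, *Il1b*, *Il6*, *Nos2* and *Saa3* had 3 counts or fewer in some libraries. With 3 libraries a group, the 95% intervals of the label difference at day 0 ran from -0.33 to 0.89 for *Il18* to -1.22 to 5.06 for *Arg1*. Removing the double hyphen libraries left KO day 1 with 1 library, assumed to vary like the others.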
